A study of Mus musculus with 14 samples.

Results

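Transcripts of 10 genes of the ATF4 stress response and of serine and one-carbon metabolism were followed in irradiated and control mouse hearts. The 10 genes are Atf4, Atf5, Ddit3, Trib3, Asns, Phgdh, Psat1, Shmt2, Mthfd2 and Aldh1l2. They were found by symbol among the 54532 genes of the deposited count table, where 11 rows carry a member name because Ddit3 has 2 entries. The second entry (ENSMUSG00000116429) had 0 counts in all libraries, and the other 10 rows all passed the filter on low counts, as did 16034 genes in total. The set was chosen by the study's own readout around Mthfd2, a hub gene of a network module tied to time, so the levels of Mthfd2 and the likeness of other genes to it are given as a description. Differences were tested over all genes, so counts over all 10 members include Mthfd2, whose own result is not read as a test.

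Hearts came from 14 wild-type male C57BL/6J mice, 1 library a mouse, and the irradiated mice had received a single dose of 30 Gy of 60Co γ-rays on the anterior chest at 8 weeks of age. Control_1d (n = 3) and IRR_1d (n = 3) were taken after 1 day, and Control_6w (n = 4) and IRR_6w (n = 4) after 6 weeks. The question addressed here is which of these transcripts differed after irradiation at each time, and which of them followed Mthfd2 across the libraries. RNA was taken from bulk heart, so fewer cells of a type and less RNA per cell cannot be told apart, and since mice of the 6-week groups were also older and were collected on another occasion, age, collection and time after irradiation cannot be told apart in a comparison over time.

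In the integrated stress response, kinases that sense unfolded proteins, amino acid shortage, viral RNA or mitochondrial damage phosphorylate the translation factor eIF2α. General translation then falls while the Atf4 mRNA is translated more, so ATF4 protein can rise with little change of its RNA. ATF4 binds composite C/EBP-ATF response elements in genes of amino acid synthesis and uptake, among them those that make serine and pass its carbon to folate in mitochondria, a programme known from heart and muscle with mitochondrial defects.

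The response element was searched for in promoter sequence, because a shared element is what these genes are usually grouped by. RefSeq promoter windows (GRCm38.p6, 250 bases before to 50 bases after an annotated start) were found for 9 of the 10 members, in 11 windows, and Aldh1l2 had none in the table used. The motif TGATGNAA was matched on both strands, its reverse complement being TTNCATCA. It occurred in 1304 of 32851 windows (3.97%) and in those of 2 members, Asns and Trib3. The 30 bases around each match are shown 5′ to 3′ on the gene's strand, with the matched letters in capitals. The Asns match begins 23 bases before the RefSeq start and lies in the first exon of a longer GENCODE transcript, and the Trib3 match begins at base 15 after the RefSeq start, read on the opposite strand.
Asns chr6:7693214-7693243 (-): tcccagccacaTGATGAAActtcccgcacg
Trib3 chr2:152344028-152344057 (-): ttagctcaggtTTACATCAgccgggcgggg

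The Mthfd2 window held no match, which says only that these letters are not in this window. Its stretch before the first exon at this start is shown because the other genes are compared with Mthfd2 below, and the stretch of Asns, the member most like it over all libraries though not within the groups, is shown beside it. A match is a description and not a measured binding site.
Mthfd2 chr6:83317607-83317854 (-): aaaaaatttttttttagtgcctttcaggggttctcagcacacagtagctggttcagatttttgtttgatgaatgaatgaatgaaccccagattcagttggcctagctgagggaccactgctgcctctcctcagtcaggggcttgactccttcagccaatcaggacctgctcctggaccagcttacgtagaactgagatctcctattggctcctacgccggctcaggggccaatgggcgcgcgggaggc
Asns chr6:7693255-7693459 (-): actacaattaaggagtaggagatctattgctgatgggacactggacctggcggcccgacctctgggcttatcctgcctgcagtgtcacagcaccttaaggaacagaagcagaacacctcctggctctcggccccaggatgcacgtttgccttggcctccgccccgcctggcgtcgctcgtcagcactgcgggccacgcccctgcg

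Library totals ran from 13336746 to 16837265 counts. In 3 libraries many genes that stood at 2 to 5 CPM in the other libraries had 0 counts: 30.7% of them in Control_1d replicate 1, 21.6% in IRR_6w replicate 3 and 8.62% in IRR_6w replicate 4, against at most 1.98% elsewhere. Ventricular myocyte markers summed to 4850 to 42900 CPM over 8 genes in the 14 libraries, but not evenly over the genes. In IRR_6w replicate 1, Myl2 was at 5.69 and Myl3 at 21.6 CPM, against at least 279 and 441 in every other library. Its sum was led by Myh6 (3770) and Actc1 (1760). Control_6w replicate 3 carried thymus markers at 4370 summed CPM (10 of 10 genes, led by Rag1, Cd8a and Lck) against 0.515 to 56.9 in the other 13 libraries, with cycling-cell markers at 1690. IRR_6w replicate 1 carried lung epithelium markers at 423 summed CPM (7 of 7 genes above 0) and the highest white fat (1890), atrial (2820) and erythroid (50200) markers. Scgb1a1 (345) and Scgb3a2 (65.5) led the lung sum, and Sftpa1, Sftpb and Sftpd were also highest there. Sftpc (0.288) and Ager (0.575) were lower there than in Control_6w replicate 3 (2.56 and 4.44). That control also had 7 of 7 lung genes above 0, at 32.9 summed CPM. Germ cell markers (Mael, Tssk2 and Prm1, with the other 3 of 6 genes at 0 there) summed to 44.0, 30.1 and 19.7 CPM in Control_6w replicates 1 to 3 and to at most 0.301 in the other 11 libraries. Ucp1, which defines brown fat, was read in Control_6w replicate 3, IRR_6w replicate 1 and IRR_1d replicate 3 and was at 0 in the other 11. Of the other brown fat markers, Cidea and Elovl3 were also highest in these 3. Ppargc1a was lowest in them (32.1, 54.8 and 58.3 CPM), and Cox7a1 (43.6, 37.8 and 67.3) lay within the range of the others (7.65 to 316). The brown fat sums were 767, 1030 and 417 CPM, against at most 415 elsewhere. Several values are also given without 1 or more of these libraries, and the part of these tissues, and of the genes at 0, in the results was not tested.

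**Figure D1:**
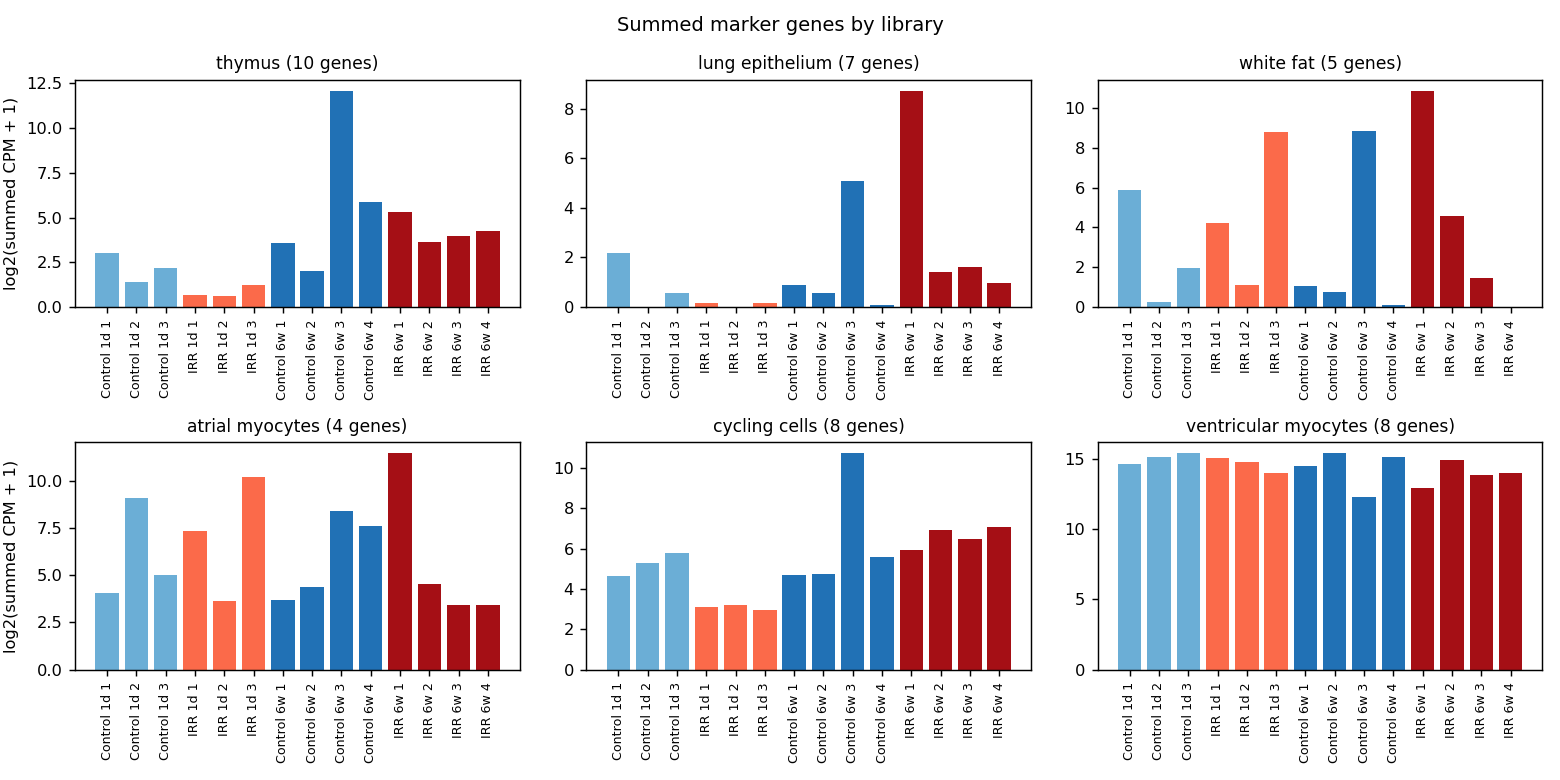
Summed marker genes by library, in CPM scaled by the trimmed mean of M-values (TMM) and shown as log2(sum + 1), 1 bar a library and 1 panel a cell type or tissue, coloured by group. Control_6w replicate 3 stands out for thymus (4370) and cycling cells (1690), and IRR_6w replicate 1 for lung epithelium (423).

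No member was called as a DEG in any comparison, where a call asks for an adjusted p under 0.05 over all genes tested (edgeR's quasi-likelihood test) and a fold change above 2 or below 0.5. For IRR_1d against Control_1d 0 of 10 members were called beside 0.0249% of all genes, 0 had an unadjusted p under 0.05 beside 2.9%, and 0 did not overlap between the groups beside 10.7%. For IRR_6w against Control_6w 0 were called beside 0.256%, 1 (Asns) had an unadjusted p under 0.05 beside 8.81%, and 0 did not overlap beside 5.72%. DESeq2 and limma-voom called 0 members too in every comparison, although DESeq2 gave no adjusted p for Phgdh and Psat1.

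Leaving out Mthfd2, 3 of 9 members (Ddit3, Asns and Phgdh) had an unadjusted p under 0.05 for Control_6w against Control_1d, beside 5.28% of all genes, and 2 of 9 (Atf5 and Asns) did not overlap, beside 5.92%. Without Control_6w replicate 3, the library with thymus markers, only Ddit3 of the 3 remained under 0.05 (beside 3.83% of all genes in that fit), while 2 of 9 (Asns and Psat1) were then under it for IRR_6w against Control_6w (beside 11.3%). Without the 3 libraries with many genes at 0, 0 of 9 were under it in these comparisons, beside 3.54% and 6.62%. For IRR_6w against IRR_1d 2 of 9 (Ddit3 and Asns) had an unadjusted p under 0.05, beside 5.79%, and 1 of 9 (Ddit3) did not overlap, beside 9.31%. Without the 3 libraries with many genes at 0, 3 of 9 (Ddit3, Asns and Atf5) were under 0.05 there, beside 3.85%. Adjusted over all genes, 0 members were called in either comparison, beside 0% of all genes (Control_6w against Control_1d) and 0.0374% (IRR_6w against IRR_1d). These comparisons share groups with those of irradiation, and their counts are small.

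Leaving out Mthfd2, the median log2 fold change of the other 9 members was 0.18 for IRR_1d against Control_1d where the median of all genes was 0.062, and 0.14 for IRR_6w against Control_6w where it was -0.089 (0.27 and 0.008 without Control_6w replicate 3). For Control_6w against Control_1d the medians were 0.79 and 0.121 (0.54 and 0.046 without Control_6w replicate 3), and for IRR_6w against IRR_1d 0.70 and -0.018 (0.34 and -0.058 without Control_6w replicate 3 and IRR_6w replicate 1). The change of the irradiation effect from 1 day to 6 weeks had a median of 0.11 over the 9 members and of -0.153 over all genes, with 0 members called and 0 at an unadjusted p under 0.05, beside 0% and 3.14% of all genes. The median was 0.28 without Control_6w replicate 3, where 1 of 9 (Psat1, log2 difference 0.11 with all libraries and 1.83 in that fit) was under 0.05, beside 4.76%, and without the 3 libraries with Ucp1 reads 2 of 9 (Asns and Psat1) were, beside 6.51%. The median of the 9 members was 0.05 without Control_6w replicate 3 and IRR_6w replicate 1, and 0.36 without the 3 libraries with many genes at 0.

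**Figure D2:**
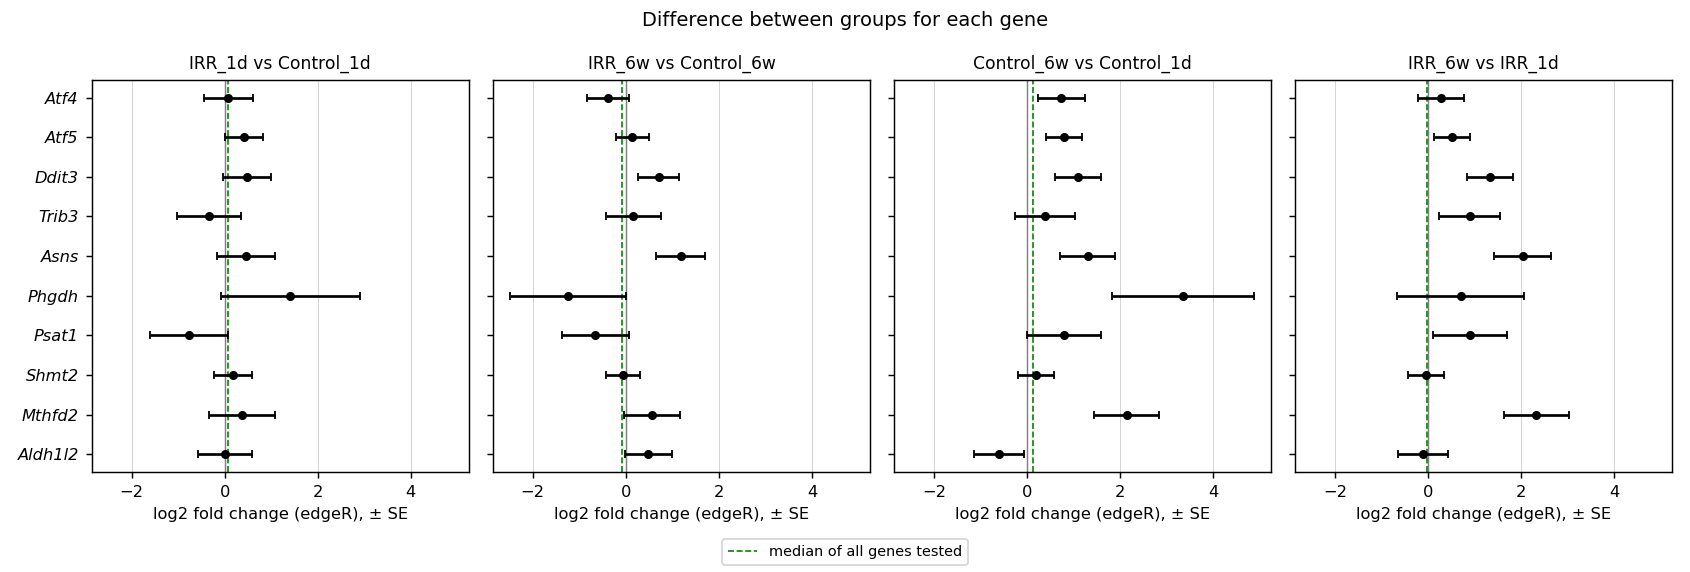
Log2 fold change of each of the 10 genes in 4 comparisons, with bars for the standard error from edgeR and a dashed line at the median of all 16034 genes tested. Asns lies 2 or more standard errors above 0 in 3 of the 4 panels, and no gene passed the adjusted threshold.

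Levels are given as TMM-scaled CPM, and between genes as FPKM, which divides by the deposited gene length. By median FPKM over the 14 libraries the order was Atf4 (22.7), Atf5 (21.8), Shmt2 (8.15), Ddit3 (6.34), Asns (2.43), Psat1 (1.95), Trib3 (1.56), Mthfd2 (1.24), Phgdh (0.978) and Aldh1l2 (0.897). The ranges of all 9 neighbouring pairs overlapped, but Atf5 was above Shmt2 in 14 of 14 libraries, while Atf4 was above Atf5 in 9, Trib3 above Mthfd2 in 6 and Phgdh above Aldh1l2 in 7. Among genes of the same reactions, the cytosolic enzymes Mthfd1 and Shmt1 had median FPKM of 5.57 and 2.16, and the mitochondrial Mthfd2l, a dehydrogenase like Mthfd2 known from adult tissues, had 1.29, close to the 1.24 of Mthfd2. Mthfd1l, which releases formate in mitochondria, had 0.43 and the cytosolic Aldh1l1 0.398.

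Atf4 (ENSMUSG00000042406, chr15:80255184-80257541, + strand, mm10), the transcription factor of the response, did not separate the groups. It stood at 21.3, 46.3 and 76.3 CPM in Control_1d replicates 1 to 3 and at 59.5, 47.4 and 45.6 CPM in IRR_1d. It stood at 34.8, 109, 90.9 and 86.0 CPM in Control_6w replicates 1 to 4 and at 81.9, 99.9, 28.6 and 36.3 CPM in IRR_6w. At 6 weeks 1 control and 2 irradiated hearts were low and the others high, so the groups overlapped throughout. The 2 low irradiated hearts and the lowest Control_1d heart are the 3 libraries with many genes at 0, and the low 6-week control had the next highest share (1.98%). The log2 fold change was 0.08 (SE 0.527) for IRR_1d against Control_1d and -0.38 (SE 0.456) for IRR_6w against Control_6w, both within 1 SE of 0, with edgeR adjusted p of 1.0 and 0.86. Without the 3 libraries with many genes at 0 the values were -0.27 and 0.18, of opposite sign to those with all libraries.

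Atf5 (ENSMUSG00000038539, chr7:44812256-44816658, - strand) encodes a related factor that is translated under the same control and acts on mitochondrial chaperones. It stood at 9.59, 31.2 and 42.9 CPM in Control_1d, 40.3, 30.8 and 40.6 in IRR_1d, 44.0, 51.0, 46.6 and 51.3 in Control_6w, and 72.1, 59.4, 45.9 and 35.6 in IRR_6w. The 4 Control_6w hearts were all above the 3 Control_1d hearts, by 0.79 on the log2 scale (SE 0.389, edgeR adjusted p = 0.902), and of the latter the lowest value was that of the library with the most genes at 0. Without the 3 libraries with many genes at 0 the difference was 0.38 (SE 0.234). Irradiated and control hearts overlapped at both times. Of its exonic bases 4.11% are shared with Il4i1 and Nup62 on the opposite strand, and whether the counting used strand is not given in the sources used here.

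Ddit3 (ENSMUSG00000025408, chr10:127290774-127296288, + strand) encodes CHOP, a factor that promotes death under prolonged stress. Its 3 IRR_1d hearts (10.6, 8.15 and 6.94 CPM) overlapped the 3 Control_1d hearts (2.88, 7.05 and 8.55 CPM). At 6 weeks it stood at 5.40, 22.5, 11.2 and 13.6 CPM in controls and at 15, 27.0, 15.6 and 28.6 CPM in irradiated hearts. All 4 IRR_6w hearts were above all 3 IRR_1d hearts, with 21.5 ± 7.24 CPM (SD, n = 4) against 8.55 ± 1.85 (SD, n = 3) and a difference of 1.33 on the log2 scale (SE 0.493, edgeR adjusted p = 0.734). Against Control_6w the IRR_6w hearts overlapped because of replicate 2 of the controls, and the log2 fold change was 0.71 (SE 0.441, edgeR adjusted p = 0.703). Other genes, among them Mars and Gm4189 on the opposite strand, share 10.9% of its exonic bases.

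Trib3 (ENSMUSG00000032715, chr2:152337422-152344032, - strand) encodes a pseudokinase that is induced by ATF4 and CHOP and restrains them. It was read at 12 to 131 counts a library and stood at 4.64, 1.21 and 3.16 CPM in Control_1d, 2.77, 1.63 and 2.71 in IRR_1d, 3.65, 5.59, 2.51 and 3.98 in Control_6w, and 3.45, 6.32, 1.59 and 6.22 in IRR_6w. All 4 groups overlapped. The largest log2 fold change was 0.89 (SE 0.655) for IRR_6w against IRR_1d, with an edgeR adjusted p of 0.999.

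**Figure D3:**
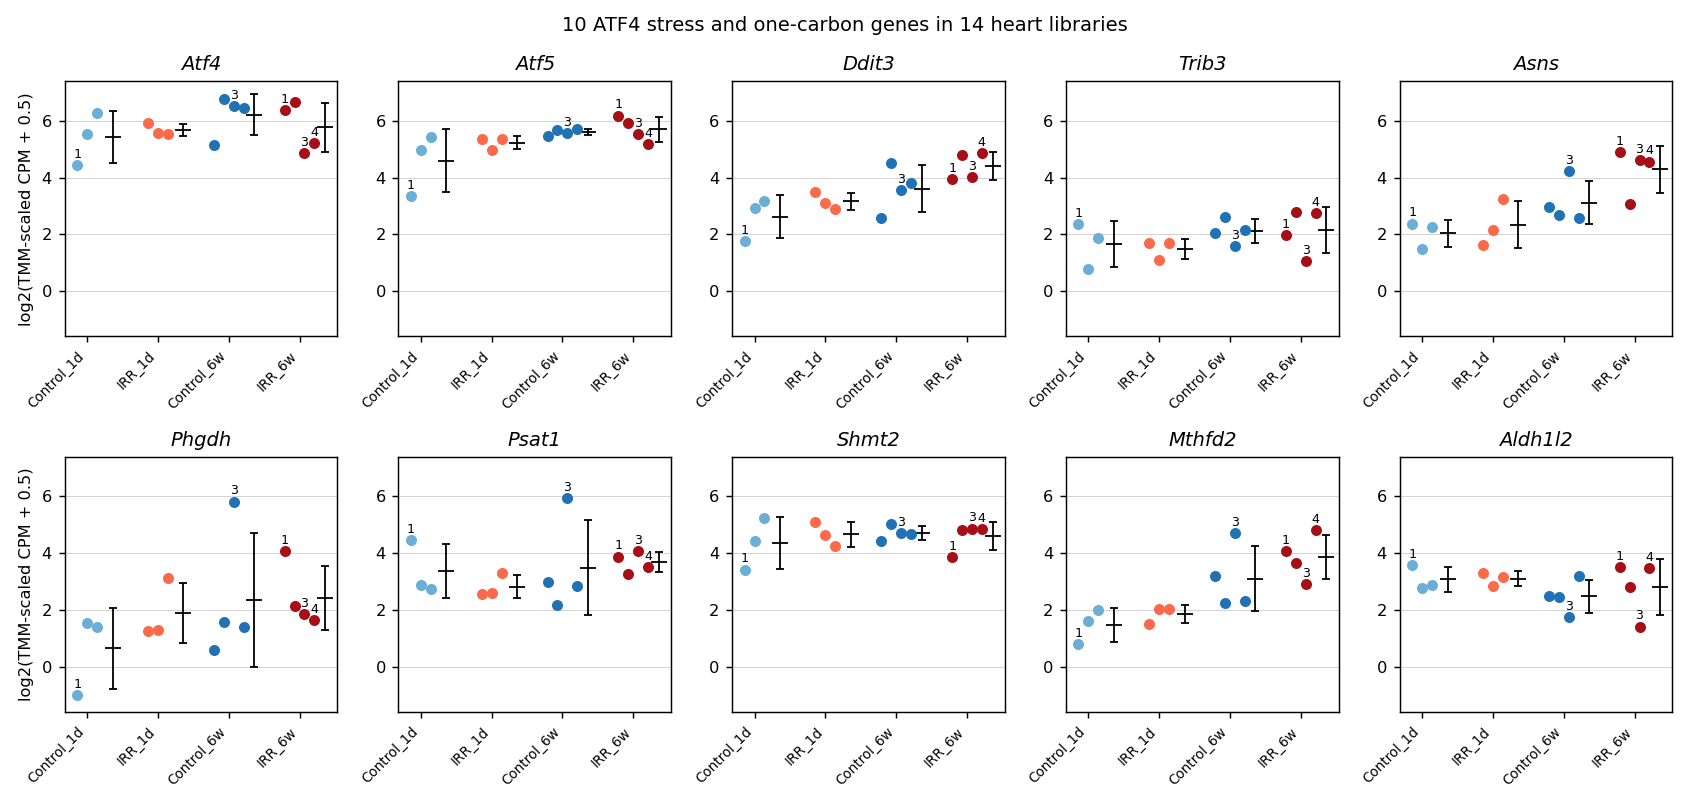
Level of each gene in each library as log2(TMM-scaled CPM + 0.5), 1 point a library, with the mean and SD of each group in black. Numerals give the replicate of libraries that stand apart, which are 1 in Control_1d and 3 and 4 in IRR_6w for many genes at 0, 3 in Control_6w for thymus markers and 1 in IRR_6w for lung epithelium markers. Phgdh and Psat1 stand far above their group in Control_6w replicate 3.

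Asns (ENSMUSG00000029752, chr6:7675169-7693254, - strand) encodes asparagine synthetase, a standard ATF4 target and, with Trib3, 1 of the 2 members with a promoter match shown above. It stood at 4.70, 2.32 and 4.24 CPM in Control_1d and at 2.58, 3.95 and 8.99 CPM in IRR_1d, the groups overlapping. It stood at 7.38, 5.89, 18.3 and 5.52 CPM in Control_6w and at 29.5, 7.95, 23.9 and 23.1 CPM in IRR_6w. Of the irradiated 6-week hearts 3 were above all controls and replicate 2 was not, while the control with thymus markers was the highest of its group. The 3 high irradiated hearts are the library with lung epithelium markers (replicate 1) and those with 21.6% and 8.62% of genes at 0 (replicates 3 and 4).

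The 6-week difference in Asns was 21.1 ± 9.23 CPM in IRR_6w against 9.29 ± 6.09 in Control_6w (SD, n = 4 each), or 1.18 higher on the log2 scale (SE 0.531). The unadjusted p from edgeR was 0.0421 and the adjusted p 0.538, so it did not pass the test. Without Control_6w replicate 3 and IRR_6w replicate 1 the log2 fold change was 1.55 (edgeR adjusted p = 0.296). It was 1.75 without the first alone (edgeR adjusted p = 0.193) and 1.01 without the 3 libraries with many genes at 0 (edgeR adjusted p = 0.779). The unadjusted p from edgeR in these fits was 0.0139, 0.00464 and 0.162. IRR_6w hearts were above IRR_1d hearts by 2.03 on the log2 scale (SE 0.606, edgeR adjusted p = 0.53), with 1 overlapping pair (8.99 CPM in IRR_1d replicate 3 and 7.95 in IRR_6w replicate 2). All 4 Control_6w hearts were above all 3 Control_1d hearts, by 1.30 (SE 0.593, edgeR adjusted p = 0.902) with all libraries and by 0.73 without Control_6w replicate 3.

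Phgdh (ENSMUSG00000053398, chr3:98313170-98339990, - strand) encodes the first enzyme of serine synthesis and was near 2 to 4 CPM in most libraries. It had 0 counts in Control_1d replicate 1, which by counting allows up to 3 counts, in a library where many expressed genes were at 0. The other Control_1d hearts had 2.42 and 2.16 CPM and the IRR_1d hearts 1.87, 1.97 and 8.19. At 6 weeks controls had 0.99, 2.45, 55.8 and 2.16 CPM and irradiated hearts 16.5, 3.91, 3.12 and 2.61. The 3 highest values belong to the 3 libraries with Ucp1 reads, and the highest of all to the library with thymus and cycling-cell markers.

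With all libraries Phgdh was lower in IRR_6w than in Control_6w, by a log2 value of -1.24 (SE 1.25, edgeR adjusted p = 0.825). Without Control_6w replicate 3 alone it was 1.80, and without that library and IRR_6w replicate 1 it was 0.78. With all libraries and a replicate block it was 0.44, so the sign rests on 1 control heart and on the model. For Control_6w against Control_1d the log2 fold change was 3.35 (SE 1.53, edgeR adjusted p = 0.902) with all libraries and 0.30 (SE 1.16) without Control_6w replicate 3. Of the 100-base stretches of Phgdh transcripts 28.1% also occur in other annotated genes, chiefly the copy Gm7901, so its counts are uncertain.

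Psat1 (ENSMUSG00000024640, chr19:15904678-15947337, - strand) encodes the next enzyme of the same path. It stood at 21.4, 6.95 and 6.24 CPM in Control_1d, 5.48, 5.58 and 9.32 in IRR_1d, 7.38, 4.06, 61.4 and 6.67 in Control_6w, and 14.2, 9.21, 16.2 and 10.9 in IRR_6w. The 61.4 CPM belong to the library with thymus markers. Without it the log2 fold change for IRR_6w against Control_6w was 1.06 (SE 0.471), which did not pass the test (edgeR unadjusted p = 0.041, adjusted p = 0.409). The log2 fold change for IRR_6w against Control_6w was -0.66 (SE 0.72, edgeR adjusted p = 0.843) with all libraries and 1.01 without that library and IRR_6w replicate 1. For Control_6w against Control_1d it went from 0.79 to -0.94 on the same change.

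Shmt2 (ENSMUSG00000025403, chr10:127517123-127522444, - strand) encodes the mitochondrial enzyme that moves a carbon from serine to folate. With all libraries and TMM scaling it changed least over time among the members. Without the 3 libraries with many genes at 0, Aldh1l2 changed less for IRR_6w against IRR_1d (0.09, against -0.29 for Shmt2). Shmt2 stood at 10.2, 21.1 and 37.0 CPM in Control_1d, 34.1, 24.6 and 18.4 in IRR_1d, 20.9, 31.9, 25.5 and 25.2 in Control_6w, and 14, 28.0, 28.7 and 28.5 in IRR_6w. All groups overlapped, and the 4 log2 fold changes ran from -0.06 (SE 0.361) to 0.19 (SE 0.392). The lowest IRR_6w value was that of the library with lung epithelium markers.

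Mthfd2 (ENSMUSG00000005667, chr6:83305691-83325908, - strand) encodes the mitochondrial dehydrogenase that oxidises the folate-bound carbon, known from embryonic and proliferating cells and from the mitochondrial stress response. It stood at 1.25, 2.52 and 3.54 CPM in Control_1d and at 2.32, 3.60 and 3.57 in IRR_1d. It stood at 8.60, 4.21, 25.6 and 4.45 CPM in Control_6w and at 16.2, 12.2, 7.06 and 27.7 in IRR_6w. Each 6-week heart was above each 1-day heart, and at 6 weeks the groups overlapped, the control with thymus markers standing beside the highest irradiated hearts.

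The log2 fold change of Mthfd2 was 2.14 (SE 0.699) for Control_6w against Control_1d and 2.32 (SE 0.701) for IRR_6w against IRR_1d. Without Control_6w replicate 3 the first was 1.24 (SE 0.561). Summed cycling-cell markers were at 6.81 to 8.07 CPM in IRR_1d and 59.4 to 132 in IRR_6w, with 8 of 8 genes higher (median log2 fold change 4.4), and at 24.3 to 54.2 CPM in Control_1d and 24.9 to 47.2 in Control_6w apart from the 1690 of replicate 3. Their part in the levels of Mthfd2 was not tested. For irradiation the log2 fold change was 0.38 (SE 0.707) at 1 day and 0.56 (SE 0.597) at 6 weeks. These values were 0.06 (SE 0.725) and 0.4 (SE 0.656) without the 3 libraries with many genes at 0. Without Control_6w replicate 3 and IRR_6w replicate 1 the 6-week value was 1.45, and the remaining irradiated hearts (7.06 to 27.7 CPM) overlapped the remaining controls (4.21 to 8.60 CPM).

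Aldh1l2 (ENSMUSG00000020256, chr10:83487450-83534140, - strand) encodes the mitochondrial enzyme that burns the carbon to CO2. It stood at 11.4, 6.34 and 6.86 CPM in Control_1d, 9.47, 6.61 and 8.52 in IRR_1d, 5.18, 4.97, 2.85 and 8.69 in Control_6w, and 10.9, 6.56, 2.16 and 10.7 in IRR_6w. All groups overlapped, and its mean was lower in Control_6w than in Control_1d, with -0.60 on the log2 scale (SE 0.543, edgeR adjusted p = 0.922). The value was -0.39 without Control_6w replicate 3 and -0.29 without the 3 libraries with many genes at 0. D10Wsu102e on the opposite strand shares 14.1% of its exonic bases.

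Likeness to Mthfd2 was taken as Pearson's r of log2 CPM over the 14 libraries, which share the 4 groups, their depth and any tissue carried along, and no p is given. Over all libraries r was 0.81 for Asns, 0.67 for Phgdh, 0.63 for Ddit3, 0.58 for Atf5, 0.45 for Psat1, 0.29 for Atf4, 0.28 for Trib3, 0.18 for Shmt2 and -0.26 for Aldh1l2. The median of these 9 was 0.45, and that of all other 16033 genes with Mthfd2 was 0.063. Spearman's rho put Asns first as well, at 0.79.

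After subtracting each group's mean, r fell to 0.49 for Asns, 0.07 for Ddit3 and 0.20 for Atf5, and was 0.67 for Phgdh and 0.46 for Psat1. A member was said to follow Mthfd2 where r was at or above 0.7 both over the libraries and within the groups. By that rule 0 of 9 members followed it, against 170 of all genes (1.06%), and by the first condition alone 1 did (Asns), against 417 genes (2.6%). The latter count depended on the setting: on library totals it was 3 (Atf5, Ddit3 and Asns), against 1132 genes (7.06%), and when 1 library was left out it ran from 1 to 3. Asns was at or above 0.7 in each of these fits, joined by Psat1 without Control_1d replicate 1, by Phgdh without IRR_1d replicate 3, by Ddit3 without Control_6w replicate 2 or 3, by Ddit3 and Phgdh without Control_6w replicate 1, and by Atf5 and Phgdh without IRR_6w replicate 4. Without Control_6w replicate 3, r over the libraries was 0.79 for Asns, 0.71 for Ddit3, 0.55 for Phgdh and 0.17 for Psat1, and r within the groups was 0.19 for Asns, 0.35 for Phgdh and -0.37 for Psat1.

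**Figure D4:**
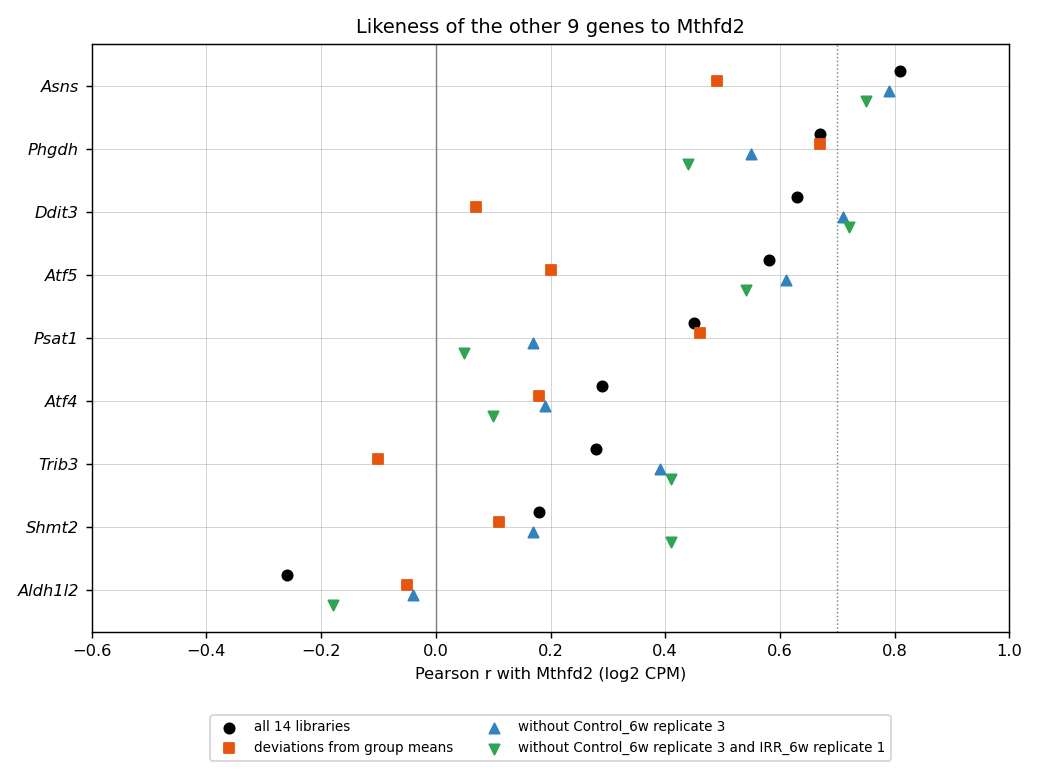
Pearson's r of each of the 9 other genes with Mthfd2, over all 14 libraries, for deviations from the group means, and without the libraries with thymus or lung epithelium markers. The dotted line is at 0.7. Asns lies above it over the libraries (0.81) and below it within the groups (0.49).

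**Figure D5:**
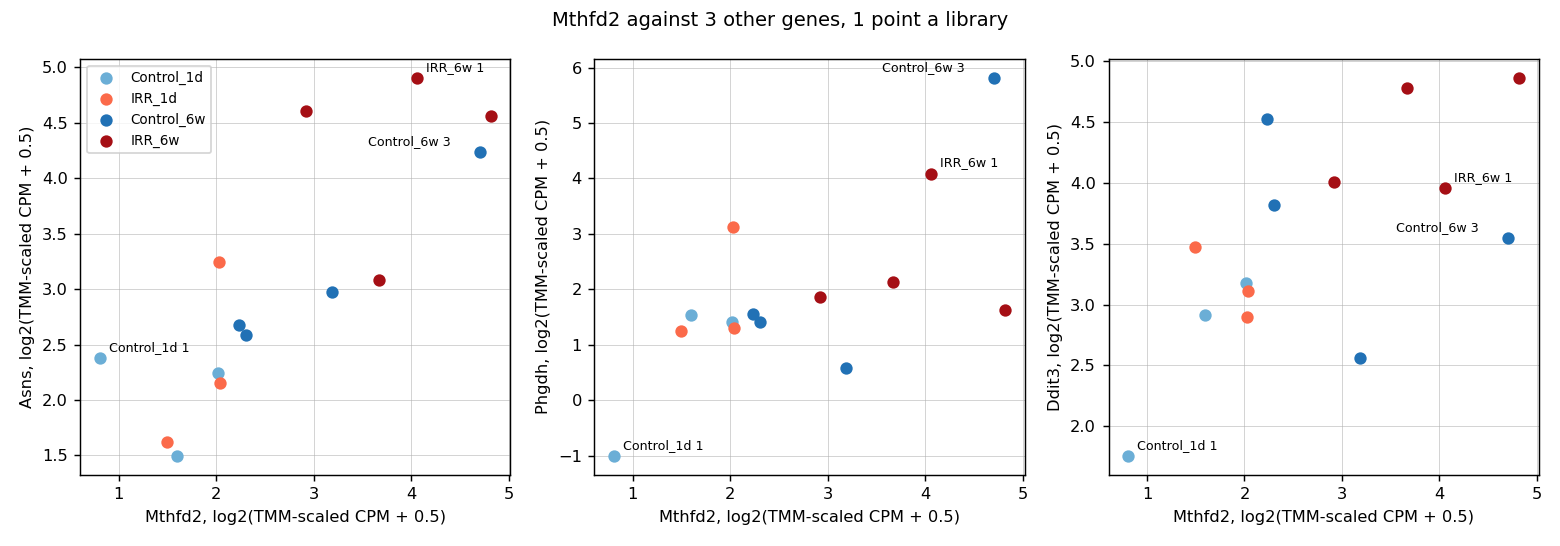
Mthfd2 against Asns, Phgdh and Ddit3 as log2(TMM-scaled CPM + 0.5), 1 point a library, coloured by group. Libraries of 1 day lie at the left and those of 6 weeks at the right in each panel, and Control_6w replicate 3 is the highest point for Phgdh.

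The 5 genes most like Mthfd2 over the libraries were Prkcd (r = 0.94, and 0.90 within the groups), H2-Q4 (0.93 and 0.81), Fam111a (0.90 and 0.80), Zbtb21 (0.90 and 0.75) and Cds1 (0.90 and 0.78). These 5 were picked for their r, so their standing above the members follows from the choice. Of all genes 0.468% had an r over the libraries at or above that of Asns, the highest member. Prkcd stood at 12.5 to 20.1 CPM in the Control_1d hearts, 14.1 to 21.1 in the IRR_1d hearts, 18.2 to 42.2 in the Control_6w hearts and 18.6 to 46.1 in the IRR_6w hearts. Between members other than Mthfd2, r was highest for Atf5 with Phgdh (0.72, and 0.62 within the groups) and for Atf4 with Atf5 (0.71 and 0.74), and within the groups for Ddit3 with Shmt2 (0.76, and 0.58 over the libraries).

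Of 27 other ATF4 targets tested, 1 was called for irradiation, at 1 day, beside 0.0249% of all genes. Sesn2, which restrains mTORC1 and is induced by p53 as well as by ATF4, rose from 2.13 to 7.32 CPM in Control_1d to 30.6 to 46.7 CPM in IRR_1d, which is 3.16 on the log2 scale (SE 0.428, edgeR adjusted p = 0.0235). The call was lost with limma-voom, on the compared groups alone, without the 3 libraries with Ucp1 reads, without the 3 with many genes at 0, with a replicate block and in 9 of 14 fits that leave out 1 library, where adjusted p ran from 0.0154 to 0.243, and the log2 fold change over all alternatives ran from 2.82 to 3.78. It was kept without Control_1d replicate 3, without Control_6w replicate 3 and without IRR_6w replicate 1, 3 or 4, and lost without any other. At 6 weeks Sesn2 was at 17.7 ± 3.81 CPM in IRR_6w against 5.54 ± 0.847 in Control_6w (SD, n = 4 each), or 1.67 on the log2 scale with an edgeR adjusted p of 0.0663, and was called in 4 of 24 alternatives, DESeq2 among them (adjusted p = 0.000779).

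Gdf15, a secreted stress cytokine that p53 also induces, did not pass the edgeR test. It was at 12.2 ± 2.65 CPM in IRR_1d against 0.687 ± 0.608 in Control_1d (SD, n = 3 each, edgeR adjusted p = 0.551), and at 16.9 ± 8.22 CPM in IRR_6w against 1.28 ± 0.679 in Control_6w (SD, n = 4 each, adjusted p = 0.0703). At 6 weeks it was called in 5 of 24 alternatives, namely DESeq2 (adjusted p = 4.63e-06), library totals (0.0426), no low-count filter (0.0107), and edgeR without Control_1d replicate 1 (0.0151) or IRR_6w replicate 1 (0.0484). Slc7a5, an amino acid transporter, was at 22.1 ± 8.02 CPM in IRR_6w, 9.44 ± 3.45 in Control_6w, 7.04 ± 1.80 in IRR_1d and 3.91 ± 1.57 in Control_1d, and no difference passed the test. In all, 4 of the 27 targets had a positive and 1 a negative log2 fold change at an unadjusted p under 0.05 for IRR_6w against Control_6w, beside 8.81% of all genes, with a median log2 fold change of 0.27. For IRR_1d against Control_1d these numbers were 2 and 1, beside 2.9%, and 0.04.

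Among 17 kinases, phosphatase subunits and other regulators of eIF2α, 1 was called at 6 weeks, beside 0.256% of all genes. Eif2ak2, the kinase PKR that senses double-stranded RNA and is itself induced by interferon, was at 59.4 ± 14.9 CPM in IRR_6w (38.3 to 70.9) against 19.4 ± 2.73 in Control_6w (16.6 to 22.8), which is 1.61 higher on the log2 scale (SE 0.307, edgeR adjusted p = 0.0468). The call was lost with limma-voom, on the compared groups alone, without the 3 libraries with many genes at 0 (adjusted p = 0.38) and in 11 of 14 fits that leave out 1 library, where adjusted p ran from 0.0162 to 0.198, and was kept without Control_1d replicate 1, IRR_1d replicate 3 or IRR_6w replicate 1. The log2 fold change was between 1.34 and 1.87 in all 24 alternatives. Macrophage markers moved with it: their sum was 461 to 717 CPM in IRR_6w against 138 to 326 in Control_6w, and 6 of 6 had a positive log2 fold change (median 1.16), 0 of them called. Their part in the level of Eif2ak2 was not tested. Eif2ak3, the kinase PERK of the endoplasmic reticulum, was at 15.8 ± 1.72 CPM in IRR_1d and 9.28 ± 4.54 in Control_1d (SD, n = 3 each), which did not pass the test (edgeR adjusted p = 1.0).

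Of the other lists 0 genes were called. Among 21 further serine, glycine and folate genes, Gcsh, of the glycine cleavage system, was at 39.7 ± 9.76 CPM in IRR_6w against 62.6 ± 1.21 in Control_6w (SD, n = 4 each, edgeR adjusted p = 0.352). Of 9 mitochondrial chaperones and proteases, 9 had a log2 fold change below 0 at 6 weeks (median -0.30, against -0.089 over all genes) and 8 at 1 day (median -0.12, against 0.062), where scaling by library totals left 6 below 0 at each time (medians -0.04 and -0.06). Hspe1 among them was at 69.8 ± 8.42 CPM in IRR_6w against 112 ± 21.4 in Control_6w (SD, n = 4 each, edgeR adjusted p = 0.31). That scaling raised the median of all genes by 0.23 at 6 weeks. Beside these genes, 8 of 8 ventricular myocyte markers had a log2 fold change below 0 at 6 weeks (median -0.74), their sum being 7900 to 30200 CPM in IRR_6w and 4850 to 42900 in Control_6w, and their part was not tested. The 12 cytosolic aminoacyl-tRNA synthetases had a median log2 fold change of 0.09 at 6 weeks and -0.04 at 1 day, with 0 at an unadjusted p under 0.05.

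No gene of the other stress paths passed the test between the times. For Control_6w against Control_1d 8 of 14 ER chaperone and unfolded protein response genes had a positive log2 fold change at an unadjusted p under 0.05 and 1 a negative one, beside 5.28% of all genes in either direction. Hyou1 was among the former (88.9 ± 24.1 CPM, SD, n = 4, against 41.1 ± 1.96, SD, n = 3, edgeR adjusted p = 0.902). In that comparison 8 of 8 tested thymus and 8 of 8 cycling-cell markers also had positive log2 fold changes (medians 8.56 and 3.7). Both had their highest sum in Control_6w replicate 3, and their part in these counts was not tested. Of 10 heat shock and immediate early genes 5 had a positive log2 fold change at an unadjusted p under 0.05 in that comparison and 5 in IRR_6w against IRR_1d, beside 5.28% and 5.79% of all genes. In the latter the cytosolic chaperones Hsph1 and Hspa1a had log2 fold changes of 3.14 (SE 0.534) and 3.45 (SE 0.617), with edgeR adjusted p of 0.064 and 0.0745.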

How the data were processed

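Heart RNA of 14 mice was sequenced. The authors checked the reads with FastQC 0.11.8, trimmed them with Trim Galore 0.6.1, aligned them with STAR 2.5.0a to mm10 and counted them per gene with HTSeq, and they deposited whole-number counts per gene with no normalization, beside gene coordinates and lengths. The annotation release and strandedness are not given in the sources used here. The deposited coordinates of all 10 members matched GENCODE M21 on GRCm38. Members and gene lists were chosen with earlier results of these data known.

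Counts were fitted with edgeR 4.0.16 in R 4.3.3 (filterByExpr, TMM, 1 model of the 4 groups, quasi-likelihood test, Benjamini-Hochberg adjustment over 16034 genes). CPM is scaled by TMM, and FPKM divides it by the deposited length. Likeness used log2 CPM with a prior count of 2. DESeq2 1.42.0, limma 3.58.1, other scalings and filters, the compared groups alone, a replicate block and each library left out in turn served as alternatives. After the values were seen, fits without the libraries with thymus or lung epithelium transcripts, also without those with brown fat transcripts, and without those with many genes at 0 were added. By counting alone, 0 counts allow up to 3 at 95% confidence.

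All members are named. Beside them are named the 5 genes most like Mthfd2, up to 4 genes of a list with the smallest unadjusted p in a comparison, paralogues of one-carbon enzymes, and up to 3 leading markers of a tissue that stands out in a library. Mthfd1, Ucp1 and other overlapping or copied genes were named after their values were seen. A gene that this rule would name is not reported here.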

Additional observations from a re-analysis of the deposited data

Results flagged for a closer look

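In the groups of 4, 20 sets of values (10 genes in Control_6w and IRR_6w) were examined for a library whose gap to its nearest neighbour, divided by the range of the group, was above Dixon's critical value of 0.829. For independent and normally distributed values chance alone marks about 1 set in 20, and 5 were marked. The sets were read in the same libraries and CPM was not logged, so the 5 cannot be set against that share. Of these, 3 lay in Control_6w replicate 3, the library with thymus markers. Phgdh was there at 55.8 CPM (nearest library 2.45), Psat1 at 61.4 CPM (nearest 7.38) and Asns at 18.3 CPM (nearest 7.38). The other 2 lay in IRR_6w replicate 1, the library with lung epithelium, white fat and atrial markers, where Phgdh was at 16.5 CPM (nearest 3.91) and Shmt2 at 14 CPM (nearest 28.0). The part of those tissues in these values was not tested.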

How the results depend on the processing

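No member was called under any of the 24 alternatives. The 40 log2 fold changes of the members gave 960 alternative values, of which 47 in 17 fold changes had the opposite sign, and no member value passed the test. By setting, these were, on library totals, Shmt2 at 6 weeks (0.18) and Shmt2 (0.27) and Aldh1l2 (0.20) for IRR_6w against IRR_1d, and with limma-voom Psat1 at 6 weeks (0.07). On library totals the median over all genes tested rose from -0.09 to 0.14 at 6 weeks and from -0.02 to 0.30 for IRR_6w against IRR_1d. Without the 2 libraries with thymus or lung epithelium transcripts the 6-week values were Atf5 -0.05, Shmt2 0.13, Psat1 1.01 and Phgdh 0.78, Psat1 was -0.94 for Control_6w against Control_1d, and Shmt2 (0.15) and Phgdh (-0.32) turned for IRR_6w against IRR_1d. Without the 3 libraries with brown fat transcripts they were Atf5 -0.06, Shmt2 0.13, Psat1 1.00 and Phgdh 0.78, Psat1 was -0.93 for Control_6w against Control_1d, and Asns was -0.21 at 1 day. Without the 3 libraries with many genes at 0, which was added after the values were seen, Atf4 (-0.27), Shmt2 (-0.18), Psat1 (0.04) and Trib3 (0.11) turned at 1 day, Atf4 (0.18) at 6 weeks, Shmt2 (-0.17) for Control_6w against Control_1d and Aldh1l2 (0.09) for IRR_6w against IRR_1d. The cause was not tested.

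When 1 library was left out at a time, the log2 fold change at 1 day ran from -0.27 to 0.62 for Atf4, -0.18 to 0.75 for Shmt2, -1.06 to 0.05 for Psat1, -0.20 to 0.79 for Asns and -0.69 to 0.12 for Trib3. At 6 weeks it ran from -0.04 to 0.29 for Atf5, -0.18 to 0.14 for Shmt2, -1.03 to 1.06 for Psat1, -2.26 to 1.80 for Phgdh and -0.06 to 0.44 for Trib3. For Control_6w against Control_1d it ran from -0.17 to 0.75 for Shmt2 and -0.94 to 1.59 for Psat1, and for IRR_6w against IRR_1d from -0.05 to 0.52 for Atf4, -0.25 to 0.19 for Shmt2, -0.32 to 1.76 for Phgdh and -0.34 to 0.19 for Aldh1l2. Of the 9 other members 0 to 1 followed Mthfd2 in these fits, the 1 being Phgdh without Control_6w replicate 1 or without IRR_6w replicate 4.

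The number of all genes called depended more on the setting. In the order IRR_1d against Control_1d, IRR_6w against Control_6w, Control_6w against Control_1d, IRR_6w against IRR_1d and the change in effect, it was 4, 41, 0, 6 and 0 as reported and 30, 331, 26, 140 and 38 with DESeq2. It was 8, 138, 6, 26 and 9 without the low-count filter. It was 2 and 83 in the first 2 on library totals, 0, 18 and 10 with limma-voom for IRR_1d against Control_1d, IRR_6w against Control_6w and IRR_6w against IRR_1d, and 0 and 13 in the first 2 on the compared groups only, where the change in effect could not be fitted. Without the 2 libraries with thymus or lung epithelium transcripts it was 14, 133, 0, 132 and 14, and without the 3 with brown fat transcripts 180, 1, 105 and 29 in the last 4. Without the 3 libraries with many genes at 0 it was 0 in the first 2 and 4 for IRR_6w against IRR_1d. Leaving out 1 library gave 0 to 11, 0 to 98, 0, 3 to 36 and 0 to 3.

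Replicate numbers are shared by the groups but mark separate mice, so they were not taken as pairs. Deviations from the group means correlated at -0.364 to 0.371 between same-numbered libraries of compared groups. Libraries of different number were not compared in this way. With a replicate block 1 gene was called for IRR_1d against Control_1d and 15 for IRR_6w against Control_6w, 0 of them members, Phgdh had a log2 fold change of 0.44 at 6 weeks, Sesn2 lost its call at 1 day (adjusted p = 0.135) and Eif2ak2 kept its own at 6 weeks (adjusted p = 0.049). By counting alone the lowest members, at 12 to 131 counts a library for Trib3, limit what these fits can tell.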
